A study of Mus musculus with 16 samples.

Results

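The ligands and receptors of the tumor necrosis factor (TNF) superfamily were examined in RNA from sorted epithelial cells of the mouse distal colon. Members were taken by gene symbol: every Tnfsf and Tnfrsf symbol followed by a number, plus *Tnf*, *Lta*, *Ltb*, *Ltbr*, *Cd40*, *Cd40lg*, *Cd27*, *Cd70*, *Fas* and *Fasl*. This gave 41 genes of the 22396 gene symbols in the abundance tables, namely 17 ligands, 5 receptors with a death domain, 4 decoy receptors and 15 other receptors. The study asked how loss of TNFR2 from the colonic epithelium changes its response to colitis induced by dextran sulfate sodium (DSS), a detergent-like polymer that injures this epithelium when given in drinking water. EpCAM is a surface protein of epithelial cells. EpCAM+ cells were sorted by flow cytometry from the distal colon of 16 mice, 1 library per mouse. For DSS mice the study describes sorting from injured regions, dissected away from unaffected colon. The tissue sampled therefore also differed between the treatments. Control mice were Tnfr2-f/f and carried a loxP-flanked exon 2 of *Tnfrsf1b*, the gene of TNFR2, without Cre. Mice labelled Tnfr2ko were *Vil1*::Cre;Tnfr2-f/f, with Cre recombinase driven by the villin promoter in intestinal epithelial cells and the same loxP-flanked alleles, so that the other cells of these mice would keep the gene. The water groups held 4 controls and 5 Tnfr2ko mice, and the groups given 3% DSS for 6 days held 3 controls and 4 Tnfr2ko mice. By the labels, all mice were dissected at day 12 from the start of treatment. The study's methods give a slightly higher DSS concentration, describe the uninjured state as day 0 and give an age of 8 weeks.

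All 7 DSS mice were female. In the water groups 4 males shared a cage and 5 females another, and no cage held both treatments, so that cage and treatment cannot be told apart. Values are TPM of each gene, a unit for the share of a library's transcripts that is corrected for transcript length and can be compared between genes. The water and the DSS libraries were scaled in separate tables by the authors. Where the treatments are set side by side, all 16 libraries were rescaled together (rescaled TPM), and these differences are given as levels with no test. The members together made up 282 ± 23.5 rescaled TPM (SD, n = 4) in water controls, 277 ± 39.0 (n = 5) in water Tnfr2ko mice, 217 ± 11.2 (n = 3) in DSS controls and 245 ± 43.1 (n = 4) in DSS Tnfr2ko mice. The order of these sums depended on the scaling: in TPM as deposited they were 253 ± 20.8, 248 ± 31.4, 249 ± 24.7 and 282 ± 49.8 in the same order of groups.

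Most ligands of this family are proteins anchored in the membrane, some of which are shed, and they bind their receptors as trimers. Receptors with a cytoplasmic death domain, such as TNFR1 (*Tnfrsf1a*), can recruit adaptors that lead to caspase activation or to NF-kappa-B, whereas receptors without one, such as TNFR2, bind TRAF proteins directly. In the intestine the family is known for TNF itself, a target of therapy in inflammatory bowel disease, and many other members are used by lymphocytes.

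The libraries carried RNA of cells other than epithelium, and its amount differed between the treatments. The 25 epithelium genes had like mean levels in the 4 groups, 6.74 to 6.90 on the log2(rescaled TPM + 1) scale, and 0 of the 25 separated all DSS from all water mice. Within a genotype, 1 of the 25 was higher and 1 lower without overlap in controls, and 3 were higher and 7 lower in Tnfr2ko mice, by less than 2-fold in each case. Of all genes averaging at least 1 TPM, 10.5% were higher and 14.2% lower without overlap in controls, and 17.3% and 18.1% in Tnfr2ko mice. All 4 leukocyte genes (*Ptprc*, which encodes CD45, and *Cd52*, *Coro1a* and *Laptm5*) and 7 of 8 macrophage genes were lower in every DSS library than in every water library. The summed level of the macrophage list was 768 to 1644 rescaled TPM in the water libraries and 7.09 to 28.2 in the DSS libraries. The B-cell and plasma-cell list summed to 543 to 16046 in water and to 7.59 to 399 after DSS. Its most abundant gene was *Jchain*, the joining chain of antibody polymers, at 522 to 15513 in water. Of the 8 genes of this list, only *Cd79a* and *Jchain* were lower in every DSS library than in every water library. *Ptprc* was 8.35 to 32.8 rescaled TPM in the water libraries and at most 4.24 after DSS. Of the 4 neutrophil genes, *S100a8* and *S100a9* were higher in every DSS library, while *Csf3r* and *Cxcr2* overlapped between the treatments, at 1.61 to 4.83 and 0 to 1.20 rescaled TPM in water and 0.506 to 9.50 and 0.357 to 3.70 after DSS. Of the 10 fibroblast and muscle genes, 9 were considered in controls, where *Col1a1*, *Col1a2*, *Dcn* and *Acta2* were at least 2-fold lower after DSS without overlap, and 8 in Tnfr2ko mice, where 0 were. The list summed to 507 to 871 rescaled TPM in water controls and 106 to 372 in DSS controls, and to 254 to 718 and 101 to 460.5 in Tnfr2ko mice. The part of these cells in the results below was not tested, and in such bulk RNA fewer cells of a type and less RNA per cell cannot be told apart.

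By their highest group mean, 12 of the 41 members reached at least 10 rescaled TPM, 14 lay between 1 and 10, and 15 stayed under 1. The 12 were the ligands *Tnf*, *Tnfsf13* and *Tnfsf9*, the death domain receptors *Tnfrsf1a*, *Tnfrsf10b* and *Tnfrsf21*, and the other receptors *Ltbr*, *Tnfrsf11a*, *Tnfrsf12a*, *Tnfrsf13b*, *Tnfrsf17* and *Tnfrsf1b*. No decoy receptor was among them. The T-cell costimulatory ligands *Cd40lg*, *Tnfsf4*, *Tnfsf8*, *Tnfsf14* and *Tnfsf18* and the killer ligand *Fasl* were among the 15 under 1, and *Cd70* was listed at 0 in all 16 mice. Over all mice, receptors of the lymphotoxin and TNF ligands led the order. *Ltbr* was first with a mean of 39.2 rescaled TPM and *Tnfrsf1a* second with 31.2. The same order held in both water groups. After DSS, *Tnf* came second in controls, with a mean of 27.2, and first in Tnfr2ko mice, with 37.8.

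**Figure D1:**
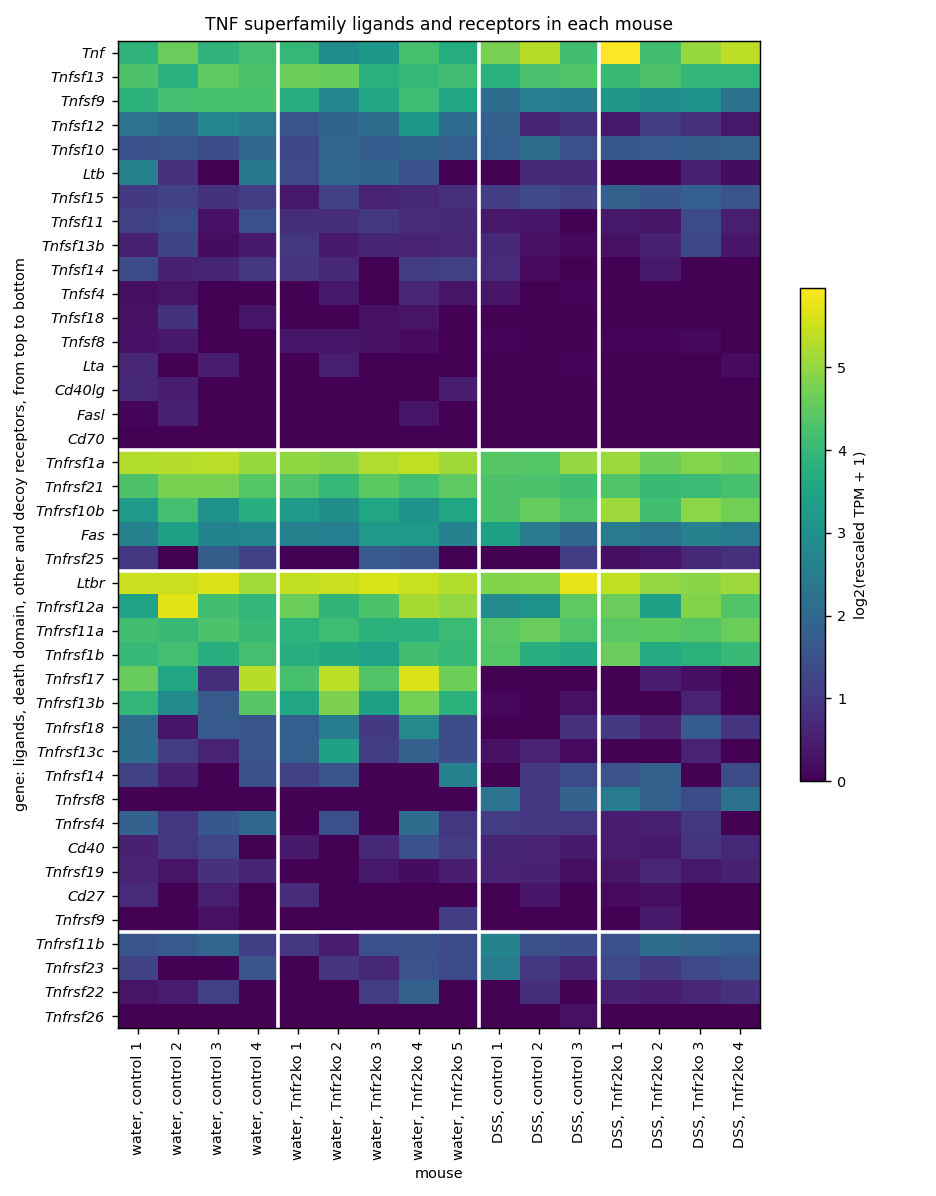
Level of each of the 41 members (rows, ordered by role and then by mean) in each of the 16 mice (columns, by group), as log2(rescaled TPM + 1) on the color scale. *Ltbr* and *Tnfrsf1a* are high throughout, *Tnfrsf17* and *Tnfrsf13b* are high in most water mice and near 0 after DSS, and *Tnfrsf8* is at 0 in all water mice.

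*Tnfrsf1b*, the targeted gene, was measured in every library. Its exon 2, which lies between the loxP sites, is printed here with its share of the transcript. It lies at chr4:145229004-145229106 on the minus strand of GRCm38, within the coding sequence of the 10-exon listed transcript:
*Tnfrsf1b* exon 2: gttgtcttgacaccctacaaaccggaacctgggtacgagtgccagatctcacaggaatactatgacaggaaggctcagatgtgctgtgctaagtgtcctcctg
The exon has 103 bases, which is not a multiple of the codon length, and makes up 2.7% of the 3818 bases of the transcript, so that the TPM of the gene draws almost wholly on sequence outside the deleted part. The rescaled TPM of *Tnfrsf1b* in water controls were 14.9, 17.2, 12.5 and 17.4, against 12.5, 11.3, 10.1, 16.8 and 14.9 in water Tnfr2ko mice. After DSS it was 19.8, 12.6 and 11.0 in controls and 23.3, 11.6, 13.2 and 15.5 in Tnfr2ko mice. The 4 groups overlapped, and the gene was not lower in the libraries labelled Tnfr2ko after DSS. In the test of genotype within a treatment (limma on log2(TPM + 1) as deposited, adjusted over all genes tested), the log2 fold change of Tnfr2ko against control was -0.23 (SE 0.16, adjusted p = 0.865) in water and 0.14 (SE 0.27, adjusted p = 1.00) after DSS. The sign after DSS turned without the first Tnfr2ko mouse, to -0.06. Whether loss of the exon changes the level of the rest of the transcript was not tested, and the values are of whole transcripts. The genotype labels were not checked by these values and are used here as given. Between treatments *Tnfrsf1b* held a like place in the libraries, at percentiles 78.4 to 85.4 of all genes in water and 80.8 to 89.3 after DSS.

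*Tnfrsf1a*, the other receptor of TNF, was more abundant than *Tnfrsf1b* in each of the 16 libraries. Its rescaled TPM were 37.6, 38.3, 39.6 and 31.8 in water controls and 30.7, 28.9, 37.3, 41.1 and 33.3 in water Tnfr2ko mice. DSS controls had 20.4, 20.1 and 30.9, and DSS Tnfr2ko mice had 32.3, 24.0, 28.1 and 25.1. All 3 DSS controls were below all 4 water controls, at a log2 ratio of -0.61 (SE 0.21), which is less than 2-fold, while the Tnfr2ko mice of the treatments overlapped, at -0.31 (SE 0.13). The controls overlapped too by rank within each library and without rescaling, where their ratio was -0.25 and the third DSS control, at 37.3 TPM as deposited, lay above all 4 water controls. The ratio in Tnfr2ko mice without rescaling was 0.04, so its direction depended on the scaling.

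**Figure D2:**
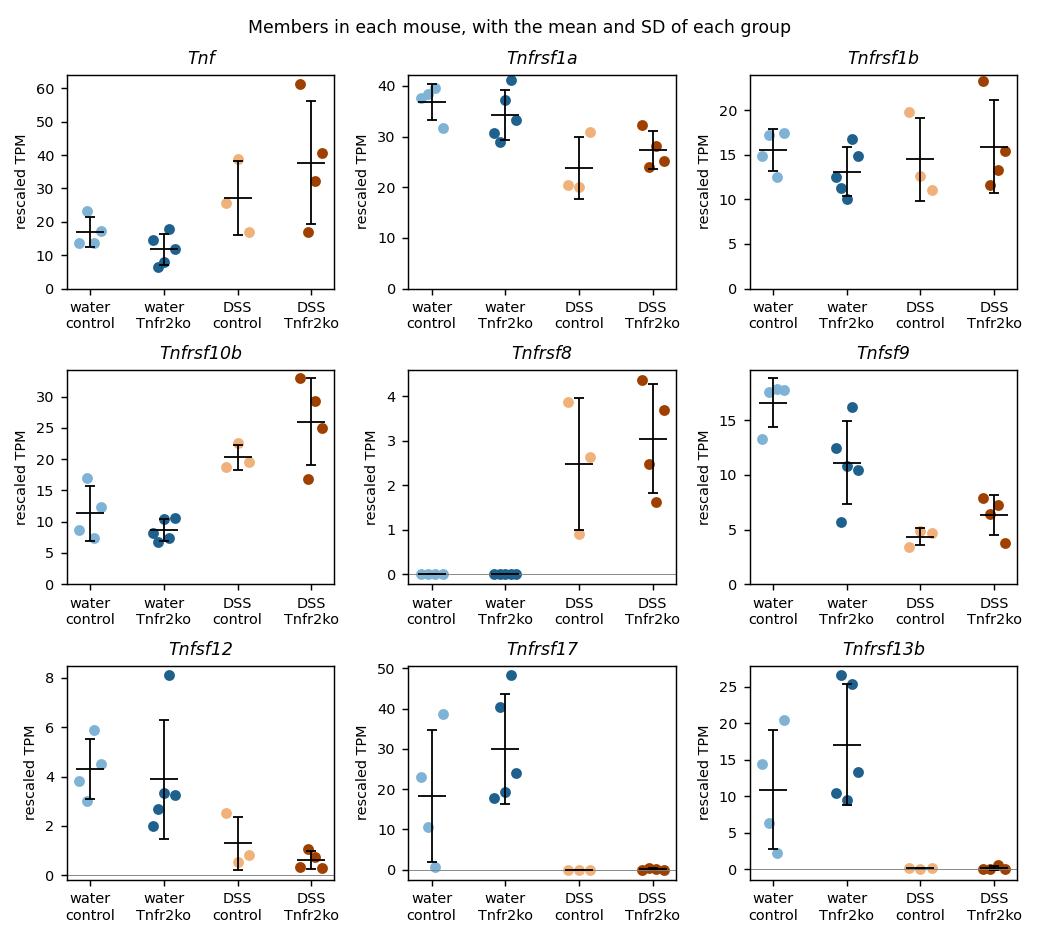
Rescaled TPM of 9 members in each mouse (points), with the group mean (horizontal mark) and SD (bars), for water controls, water Tnfr2ko, DSS controls and DSS Tnfr2ko mice. *Tnfrsf8* is at 0 in all water mice and between 0.908 and 4.37 after DSS, while *Tnfrsf17* and *Tnfrsf13b* stand at most at 0.401 and 0.488 after DSS.

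For the effect of treatment, a member was counted as higher or lower after DSS when the mean of rescaled TPM + 1 differed at least 2-fold and the mice of the 2 groups did not overlap. Of the 41 members, 23 averaged 1 TPM or more in controls and 23 in Tnfr2ko mice, the minimum set for this comparison, with *Tnfrsf4* reaching it only in controls and *Tnfrsf14* only in Tnfr2ko mice. This filter lets in members that are high in a single group, such as *Tnfrsf8*, and the counts are descriptions. In controls 1 member was higher, *Tnfrsf8*, where 1.66% of all genes considered were higher, and 4 were lower, *Tnfrsf17*, *Tnfrsf13b*, *Tnfsf9* and *Tnfsf12*, where 8.31% of all genes were lower. In Tnfr2ko mice 2 were higher, *Tnfrsf8* and *Tnfrsf10b*, against 3.47% of all genes, and 4 were lower, *Tnfrsf17*, *Tnfrsf13b*, *Tnfrsf13c* and *Tnfsf12*, against 9.23% of all genes. *Tnfrsf8* was not counted in controls without the first or the third DSS mouse, nor in Tnfr2ko mice without the first DSS mouse, because its mean then fell under the minimum. The median log2 ratio of the members was -0.24 in controls and -0.20 in Tnfr2ko mice, beside 0.00 and -0.03 for all genes. Just outside the rule lay *Tnfrsf10b* in controls, at 1.73-fold, and *Tnfsf15* in Tnfr2ko mice, at 1.96-fold. Just inside it lay *Tnfsf12* in controls, 2.31-fold lower, and *Tnfrsf10b* in Tnfr2ko mice, 2.79-fold higher. Controls and Tnfr2ko mice have no animals in common. Whether the effect of DSS differed between the genotypes was not tested.

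**Figure D3:**
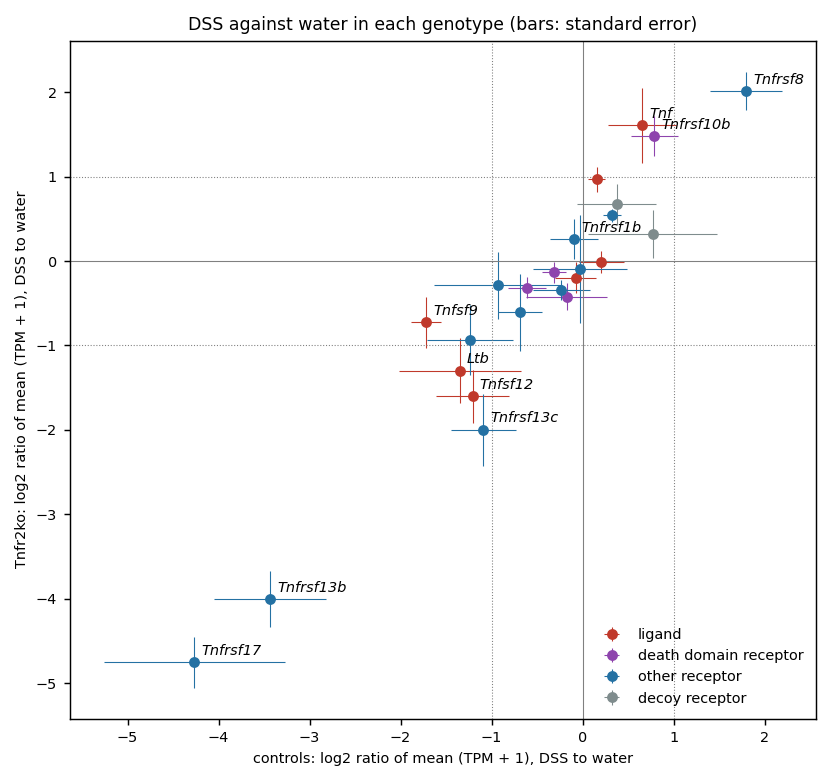
Log2 ratio of the mean rescaled TPM + 1 of DSS to water mice in controls (x axis) and in Tnfr2ko mice (y axis) for the members with a mean of at least 1 TPM in either genotype, colored by role, with bars for the standard error and dotted lines at 2-fold. *Tnfrsf17* and *Tnfrsf13b* lie far below the other members in both genotypes, and *Tnfrsf8* is the highest in both.

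Among the ligands, *Tnf* had the highest mean over all mice. In water, *Tnfsf13* had the higher mean, 17.8 against 17.0 rescaled TPM in controls and 18.1 against 11.7 in Tnfr2ko mice. The rescaled TPM of *Tnf* were 13.7, 23.3, 13.7 and 17.2 in water controls and 14.6, 6.44, 8.00, 17.7 and 11.9 in water Tnfr2ko mice. DSS controls had 25.7, 38.8 and 17.0, and DSS Tnfr2ko mice had 61.4, 16.9, 32.2 and 40.6. The mean was higher after DSS in both genotypes, at a log2 ratio of 0.65 (SE 0.37) in controls and 1.61 (SE 0.45) in Tnfr2ko mice, but the mice overlapped in each, through the third DSS control and the second DSS Tnfr2ko mouse. By rank within each library, Tnfr2ko mice did not overlap, with *Tnf* at percentiles 72.1 to 85.2 in water and 86.3 to 96.0 after DSS.

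*Tnfsf9*, which encodes the costimulatory ligand 4-1BBL, was lower after DSS. Water controls had 13.3, 17.6, 17.9 and 17.7 rescaled TPM and DSS controls 3.42, 4.87 and 4.72, a log2 ratio of -1.72 (SE 0.16). Water Tnfr2ko mice had 12.5, 5.68, 10.8, 16.2 and 10.4 and DSS Tnfr2ko mice 7.88, 6.46, 7.26 and 3.77, a log2 ratio of -0.72 (SE 0.30). In controls the treatments were well apart, and in Tnfr2ko mice they overlapped through the second water mouse, a male. The remaining water Tnfr2ko mice, of both sexes, were above every DSS Tnfr2ko mouse. With females only, *Tnfsf9* was still not counted as lower in Tnfr2ko mice. Each 31-base window of the *Tnfsf9* transcript was found in no other annotated transcript. Its receptor *Tnfrsf9* was at most 0.222 rescaled TPM in any group mean.

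*Tnfsf12* encodes TWEAK, the ligand of the receptor encoded by *Tnfrsf12a*. It had 3.83, 3.03, 5.90 and 4.52 rescaled TPM in water controls and 2.54, 0.535 and 0.83 in DSS controls, a log2 ratio of -1.21 (SE 0.40). In water Tnfr2ko mice it had 2.01, 2.71, 3.35, 8.10 and 3.26, and in DSS Tnfr2ko mice 0.319, 1.06, 0.742 and 0.311, a log2 ratio of -1.60 (SE 0.31). The mice overlapped in neither genotype, but the fall in controls was under 2-fold without rescaling, at a log2 ratio of -0.97, and did not meet the rule there or with scaling by the epithelium list. This gene shares sequence with a neighbour: 49.7% of the 31-base windows of its transcript, and 69.4% of those of the adjacent *Tnfsf13*, also occur in *Tnfsfm13*, an overlapping locus that spans both. *Tnfsf13* encodes APRIL, a survival factor of plasma cells, and overlapped between the treatments. It had 18.7, 12.7, 21.5 and 18.3 rescaled TPM in water controls, 23.7, 22.7, 12.7, 14.8 and 16.7 in water Tnfr2ko mice, 13.1, 18.2 and 19.2 in DSS controls and 15.4, 18.6, 14.5 and 14.3 in DSS Tnfr2ko mice. Summed over *Tnfsf12*, *Tnfsf13* and *Tnfsfm13*, the locus gave 25.2 ± 4.87 rescaled TPM in water controls (n = 4) and 20.8 ± 2.97 in DSS controls (n = 3), and the mice overlapped. In Tnfr2ko mice the sum was 25.0 ± 3.32 in water (n = 5) and 18.9 ± 2.42 after DSS (n = 4), also with overlap. *Tnfsf13* made up most of each sum, so this overlap says little about *Tnfsf12*. Reads shared within the locus were divided between its genes by kallisto, and the value of *Tnfsf12* is uncertain for that reason.

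Of the low ligands, *Tnfsf15*, which encodes TL1A, had 1.03, 1.23, 0.836 and 1.13 rescaled TPM in water controls and 1.13, 1.49 and 1.23 in DSS controls. In Tnfr2ko mice it had 0.304, 1.24, 0.488, 0.590 and 0.766 in water and 2.67, 2.09, 2.44 and 1.93 after DSS, where the treatments did not overlap. *Tnfsf10*, the gene of TRAIL, had group means between 2.08 and 2.54. *Ltb*, a lymphotoxin subunit, was highest in the first water control, at 5.25 rescaled TPM, and at most 0.603 after DSS, with a library listed at 0 in each of the 4 groups.

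Among the death domain receptors, *Tnfrsf10b*, the mouse receptor of TRAIL, was higher after DSS. It had 8.59, 17.1, 7.31 and 12.4 rescaled TPM in water controls and 18.8, 22.5 and 19.5 in DSS controls, a log2 ratio of 0.79 (SE 0.26). Water Tnfr2ko mice had 8.15, 6.79, 10.5, 7.33 and 10.5 and DSS Tnfr2ko mice 32.9, 16.8, 29.2 and 24.9, a log2 ratio of 1.48 (SE 0.23). The treatments overlapped in neither genotype, although the size in controls was under 2-fold. Of the 31-base windows of its transcript, 15.7% also occur in other genes. Its ligand gene *Tnfsf10* overlapped between the treatments in both genotypes. *Tnfrsf21*, which encodes death receptor 6, had 18.8, 26.1, 25.99 and 19.9 in water controls and 18.7, 18.5 and 16.8 in DSS controls, which came just below them. Without rescaling its log2 ratio in controls was 0.02, so this direction depended on the scaling. In Tnfr2ko mice *Tnfrsf21* had 19.4, 14.7, 21.1, 17.3 and 21.4 in water and 19.3, 15.1, 15.7 and 17.9 after DSS, with overlap. *Fas*, the receptor of FasL, had group means between 4.51 and 6.53, and *Tnfrsf25* of at most 1.14.

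*Tnfrsf8*, which encodes the activation marker CD30, was listed at 0 in all 9 water mice. After DSS it had 3.86, 0.908 and 2.64 rescaled TPM in controls and 4.37, 2.48, 1.63 and 3.69 in Tnfr2ko mice. All 7 DSS mice were thus above all water mice, at a low level, and no fold is given against a group at 0. By rank it stood at percentiles 54.0 to 68.2 of a library after DSS. Only 8.1% of the 31-base windows of the listed transcript are in no other annotated transcript of the gene, and isoforms outside the table were not analysed here. Its ligand gene *Tnfsf8* had group means of at most 0.175. The gene lies beside *Tnfrsf1b* on chromosome 4, 20.3 kb away on the same strand, and the neighbour had overlapping levels in all groups.

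Of the receptors of the B lineage, *Tnfrsf17* and *Tnfrsf13b* were lower after DSS in both genotypes and *Tnfrsf13c* in Tnfr2ko mice. *Tnfrsf17*, which encodes BCMA of plasma cells, had 22.9, 10.6, 0.712 and 38.8 rescaled TPM in water controls and 17.8, 40.4, 19.3, 48.3 and 24.0 in water Tnfr2ko mice. It was listed at 0 in all 3 DSS controls and had 0, 0.401, 0.187 and 0 in DSS Tnfr2ko mice. Every DSS mouse was below every water mouse, the nearest being the third water control. *Tnfrsf13b*, the gene of TACI, had 14.5, 6.38, 2.23 and 20.5 in water controls and 10.5, 26.6, 9.43, 25.4 and 13.3 in water Tnfr2ko mice. After DSS it had 0.0936, 0 and 0.205 in controls and 0, 0, 0.488 and 0 in Tnfr2ko mice, again with no overlap. *Tnfrsf13c*, which encodes the BAFF receptor, had 3.43, 1.06, 0.509 and 1.96 in water controls against 0.202, 0.519 and 0.134 after DSS, and 2.44, 9.71, 1.11, 2.54 and 1.65 in water Tnfr2ko mice against 0, 0, 0.495 and 0. In controls the treatments overlapped at a single pair of mice. In Tnfr2ko mice the log2 ratio of *Tnfrsf13c* was -1.998 (SE 0.43), but -1.38 without the second water mouse, which had 9.71. With females only it was -1.30, and the gene was not counted because its mean fell under the minimum of 1 TPM. The B-cell and plasma-cell list was lower in the same libraries, as given above. Its part in these 3 receptors was not tested between treatments.

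Within the 9 water mice, the slope of each member on the mean of that list, which holds no member, was fitted with genotype as a covariate (limma on log2(TPM + 1) as deposited). The list mean ran from 2.18 in the third water control, the mouse with the lowest *Tnfrsf17* and *Tnfrsf13b*, to 4.79 in the second water Tnfr2ko mouse, which had the highest *Tnfrsf13b* and *Tnfrsf13c*. Per unit of list mean, *Tnfrsf17* was 1.52 higher on the log2 scale (SE 0.28, adjusted p = 0.123), with a slope of 0.80 to 1.85 and an adjusted p of 0.0545 to 0.916 over the alternatives. *Tnfrsf13b* was 1.08 higher (SE 0.16, adjusted p = 0.0792), with a slope of 0.94 to 1.23 and an adjusted p of 0.0422 to 0.849 over the alternatives. By limma 0 of the 21 members tested passed an adjusted p of 0.05, where 0.0362% of all genes passed with a positive slope, and 5 members had an unadjusted p under 0.05, where 8.22% of all genes did. These were *Tnfrsf17*, *Tnfrsf13b*, *Tnfrsf13c*, *Ltb* and, with a negative slope of -0.25 (SE 0.08), *Tnfrsf21*. The slope of *Ltb* was 1.06 (SE 0.24) and ran from -0.09 to 2.25 over the alternatives, so that its sign was not stable. With the corresponding T-cell list, 0 of 21 members passed, where 0% of all genes passed in either direction, and 3 had an unadjusted p under 0.05 by limma, where 6.22% of all genes did. These were *Tnfrsf17*, *Tnfrsf13b* and *Ltb*, with slopes of 4.20 (SE 1.11), 3.00 (SE 0.71) and 2.63 (SE 1.01), and the slope of *Ltb* ran from -0.30 to 5.01 over the alternatives. The T-cell list mean ran only from 0.694 to 1.43, so slopes per unit cannot be compared in size between the lists. Neither fit held the other list, so slopes on the 2 lists are not separate results. *Tnfrsf1a*, *Tnfrsf1b* and *Tnf* had slopes on the B-cell list of -0.08 (SE 0.09), 0.06 (SE 0.12) and -0.18 (SE 0.20).

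**Figure D4:**
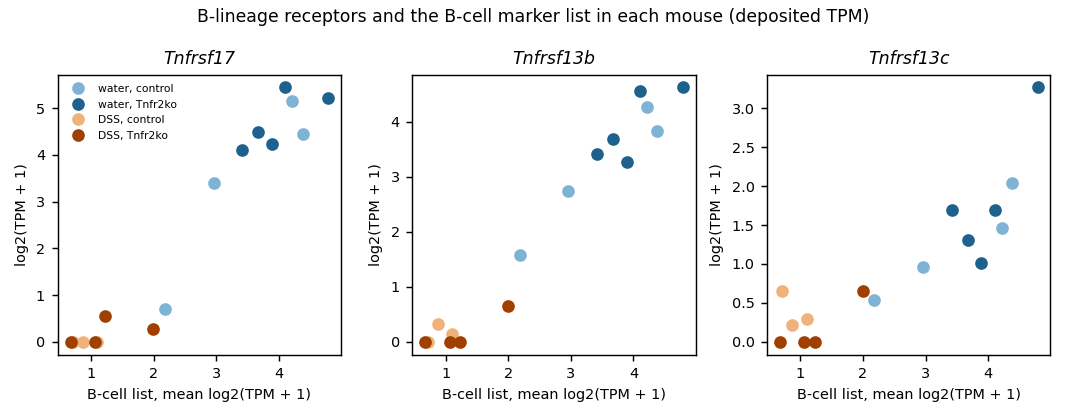
Level of *Tnfrsf17*, *Tnfrsf13b* and *Tnfrsf13c* (y axis, log2(TPM + 1) as deposited) against the mean of the B-cell and plasma-cell list (x axis, same scale) in each mouse, colored by group. The DSS mice lie at the lower left, and among the water mice the third control, with a list mean of 2.18, has the lowest values of all 3 genes.

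The remaining receptors with more than 10 TPM overlapped between treatments or differed little. *Ltbr*, the lymphotoxin beta receptor, had 44.0, 43.8, 49.4 and 34.1 rescaled TPM in water controls and 41.8, 43.9, 47.5, 42.8 and 37.8 in water Tnfr2ko mice. After DSS *Ltbr* had 27.6, 28.5 and 52.4 in controls and 41.0, 31.1, 29.0 and 33.2 in Tnfr2ko mice, with 1 control above all others. *Tnfrsf11a*, which encodes RANK, had 16.7, 15.5, 18.5 and 15.3 in water controls, 20.6, 23.1 and 19.1 in DSS controls, 13.4, 16.2, 13.3, 12.9 and 15.7 in water Tnfr2ko mice and 20.7, 21.2, 19.6 and 23.5 in DSS Tnfr2ko mice. RANK was thus higher in every DSS mouse, by a log2 ratio of 0.32 (SE 0.10) in controls and 0.54 (SE 0.08) in Tnfr2ko mice. Mice of the treatments did not overlap at any size of difference in the upward direction for 3 members in controls, beside 10.5% of all genes, and for 4 in Tnfr2ko mice, beside 17.3%. In the downward direction they were 6 in controls, beside 14.2%, and 4 in Tnfr2ko mice, beside 18.1%. *Tnfrsf12a*, the TWEAK receptor, overlapped between the treatments in both genotypes, with 9.86, 51.4, 16.7 and 14.5 in water controls, 23.8, 13.9, 18.3, 35.4 and 30.8 in water Tnfr2ko mice, 6.30, 7.36 and 21.3 in DSS controls and 23.2, 9.40, 27.4 and 19.2 in DSS Tnfr2ko mice. Of the decoy receptors, *Tnfrsf11b*, which encodes osteoprotegerin, had group means between 1.27 and 2.93, and *Tnfrsf23* between 0.797 and 2.06, with overlap.

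The low members *Tnfrsf18*, *Tnfrsf4*, *Tnfrsf14*, *Tnfsf13b* and *Cd40*, known mainly from lymphocytes and antigen-presenting cells, overlapped between the treatments in both genotypes, as did *Tnfsf11*. *Tnfrsf18*, which encodes GITR, ranged from 0.273 to 3.34 rescaled TPM in water controls, from 1.03 to 6.03 in water Tnfr2ko mice, from 0 to 0.771 in DSS controls and from 0.499 to 2.33 in DSS Tnfr2ko mice. *Tnfrsf4*, which encodes OX40, ranged from 0.928 to 3.06 in water controls and from 0.930 to 1.06 in DSS controls, and it was listed at 0 in some Tnfr2ko mice of both treatments. The T-cell and NK-cell list summed to 11.9 to 44.7 rescaled TPM in the water libraries and to 0.187 to 2.75 after DSS. Of the 10 genes of this list, only *Cd2* and *Cd4* were lower in every DSS library than in every water library. The part of the list in these values was not tested. *Tnfrsf14*, which encodes the herpesvirus entry mediator, ranged from 0 to 5.18 over all mice. *Tnfsf11*, the gene of RANKL, the ligand of RANK, had group means between 0.203 and 1.19, *Tnfsf13b*, the gene of BAFF, between 0.298 and 0.598, and *Cd40* between 0.450 and 0.772. All 3 were thus near or under 1 in each group.

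Genotype was compared within each treatment. After DSS, 0 of the 18 members tested differed between Tnfr2ko and control mice by limma at an adjusted p of 0.05, where 0.00918% of all genes did, and 1 member had an unadjusted p under 0.05, where 2.65% of all genes did. In water, 0 of 21 members differed, where 0.00905% of all genes did, and 1 had an unadjusted p under 0.05, where 5.28% of all genes did. The first was *Tnfsf15*, at a log2 fold change of 0.56 (SE 0.20, adjusted p = 1.00, higher in 4 of 4 Tnfr2ko mice than in any control). The second was *Tnfsf9*, at -0.58 (SE 0.24, adjusted p = 0.865) with overlapping mice. After DSS the mice of the genotypes were apart for 1 member upward, *Tnfsf15*, beside 2.13% of all genes, and for 0 downward, beside 1.55%. In water they were apart for 0 members, beside 0.67% of all genes upward and 0.878% downward. *Tnf* was -0.54 (SE 0.28, adjusted p = 0.865) in water and 0.41 (SE 0.42, adjusted p = 1.00) after DSS, and its 95% interval ran from -1.17 to 0.10 in water and from -0.57 to 1.39 after DSS. *Tnfrsf1a* was -0.10 (SE 0.12, adjusted p = 0.899) in water and 0.23 (SE 0.21, adjusted p = 1.00) after DSS. *Tnfrsf12a* had the largest change after DSS, 0.83 (SE 0.49), and *Tnfrsf17* in water, 1.27 (SE 0.80), and neither passed the test. The median log2 fold change of the members was 0.09 after DSS and -0.10 in water, beside 0.02 and 0.00 for all genes. The intervals leave room for changes of this size, and whether the genotype difference itself differed between treatments was not tested.

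**Figure D5:**
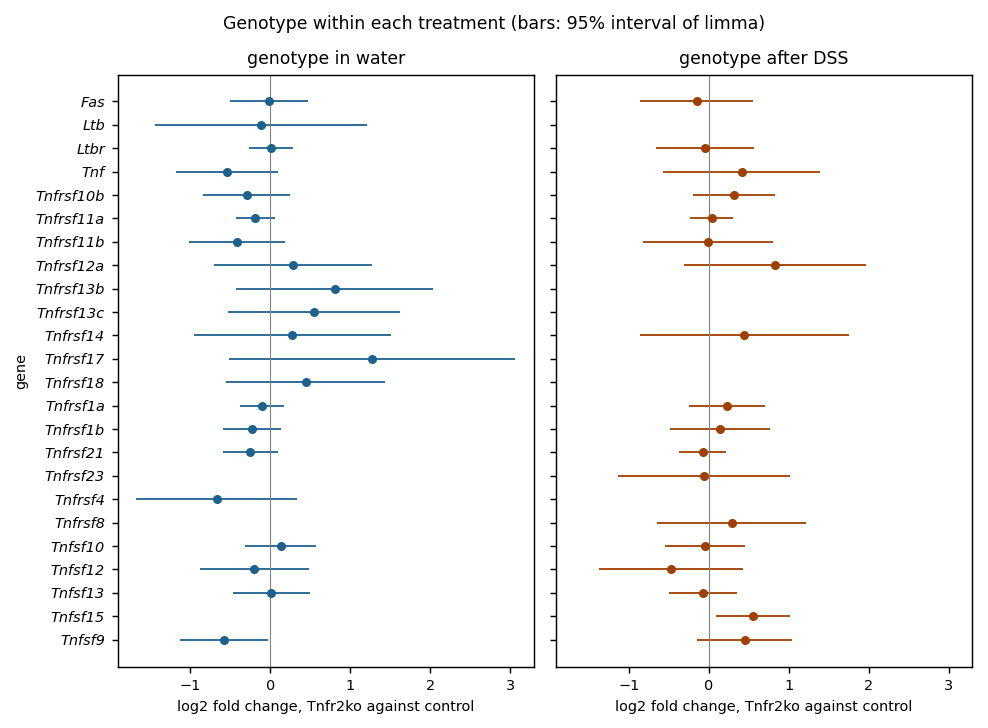
Log2 fold change of Tnfr2ko against control mice for each member tested, in water (left) and after DSS (right), from limma on log2(TPM + 1), with 95% intervals as bars. The intervals cover 0 for all but *Tnfsf9* in water and *Tnfsf15* after DSS, and no member passes the adjusted test.

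Within cages the sign of the *Tnf* difference was not the same after DSS. In the cage with 1 mouse of each genotype, the log2 difference of *Tnf* was 1.75, and in the cage with 2 controls and 3 Tnfr2ko mice it was -0.12. In water it was -0.44 in the cage of males and -0.69 in the cage of females. For *Tnfrsf1b* the difference was -0.18 in the cage of males, -0.31 in that of females, and 0.97 and -0.18 in the DSS cages. *Tnfsf9* in water was lower in Tnfr2ko mice in both cages, by -0.78 and -0.48.

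Of 23 adaptors and regulators that act below these receptors, 21 in controls and 22 in Tnfr2ko mice were considered between treatments. *Traf1*, an adaptor of TNFR2, was the only one at least 2-fold lower without overlap in controls, with 6.39 ± 2.85 rescaled TPM in water (n = 4) and 1.31 ± 0.751 after DSS (n = 3). In Tnfr2ko mice *Traf1* was 6.99 ± 2.38 in water (n = 5) and 1.32 ± 0.521 after DSS (n = 4), and *Ripk3*, a kinase of necroptosis, was the only adaptor at least 2-fold higher without overlap, with 11.3 ± 5.66 and 26.03 ± 7.07. Of all genes considered, 8.31% were lower by the same rule in controls, and in Tnfr2ko mice 9.23% were lower and 3.47% higher. Over both genotypes, *Ripk3* and *Bag4* were higher in every DSS mouse than in every water mouse. *Traf1* and *Map3k14*, the kinase NIK, were lower in every DSS mouse. The share of all genes apart in this way over both genotypes was not computed. At any size of difference, 2 of 21 adaptors were higher and 3 lower without overlap in controls, beside 10.5% and 14.2% of all genes. In Tnfr2ko mice 3 of 22 were higher and 4 lower, beside 17.3% and 18.1%. *Bag4* differed by less than 2-fold, at a log2 ratio of 0.50 in controls and 0.61 in Tnfr2ko mice. So did *Map3k14*, at -0.96 and -0.59. *Tnfaip3*, which encodes the inhibitor A20 and is a target of NF-kappa-B, overlapped between the treatments, with group means between 58.0 and 82.6. By limma 0 of 22 adaptors after DSS and 0 of 21 in water differed between the genotypes, beside 0.00918% and 0.00905% of all genes. In either, 0 had an unadjusted p under 0.05, beside 2.65% of all genes after DSS and 5.28% in water. The symbol rule leaves out *Eda*, *Edar*, *Eda2r*, *Ngfr* and *Relt*, and these 5 superfamily genes were under the minimum of 1 TPM over the mice compared. It leaves out *Tnfsfm13* too, which had group means of 2.63 to 3.09 rescaled TPM.

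Many members lie next to each other in the genome: 22 of the 41 were within 100 kb of another member, in 9 clusters. The levels of neighbours often differed widely. On chromosome 17, *Tnf* (chr17:35199381-35202007) lies between *Ltb* and *Lta*, 3.06 and 1.16 kb away, and *Lta* was at most 0.229 rescaled TPM in any group mean. On the same chromosome *Tnfsf9* lies 38.2 kb from *Cd70*, which was at 0. On chromosome 6 *Tnfrsf1a* lies 35.5 kb from *Ltbr*, the pair with the highest means over all mice. *Ltbr* lies 69.6 kb from *Cd27*, whose group means were at most 0.264.

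Sequence upstream of the start is printed for *Tnfrsf8*, *Tnfrsf17* and *Tnfrsf13b*, which differed most between the treatments. It is also printed for *Tnf*, the ligand with the highest mean over all mice. RefSeq promoters (GRCm38.p6) were matched by symbol for 31 of the 41 members, with 35 entries, and the 250 bases before the start were searched on both strands for an NF-kappa-B consensus, for TATAAA and for the octamer ATTTGCAT of B-lineage promoters. The capitals mark the NF-kappa-B consensus in *Tnfrsf8*, found in overlapping frames on both strands, and TATAAA in *Tnf* and *Tnfrsf17*, while *Tnfrsf13b* held none of the 3 motifs. The regions are chr4:145315165-145315414 on the minus strand for *Tnfrsf8*, chr17:35202008-35202257 on the minus strand for *Tnf*, chr16:11313559-11313808 on the plus strand for *Tnfrsf17* and chr11:61126505-61126754 on the plus strand for *Tnfrsf13b*:
*Tnfrsf8* promoter: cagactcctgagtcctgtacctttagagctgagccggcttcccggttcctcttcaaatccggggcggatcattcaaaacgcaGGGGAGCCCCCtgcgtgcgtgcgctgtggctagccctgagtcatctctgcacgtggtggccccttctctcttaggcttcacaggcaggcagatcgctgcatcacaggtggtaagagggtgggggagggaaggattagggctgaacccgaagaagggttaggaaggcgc
*Tnf* promoter: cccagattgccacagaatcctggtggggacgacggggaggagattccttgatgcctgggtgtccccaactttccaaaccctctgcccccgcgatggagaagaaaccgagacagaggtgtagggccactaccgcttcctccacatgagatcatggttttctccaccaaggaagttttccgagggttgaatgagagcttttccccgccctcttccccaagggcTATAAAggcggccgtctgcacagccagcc
*Tnfrsf17* promoter: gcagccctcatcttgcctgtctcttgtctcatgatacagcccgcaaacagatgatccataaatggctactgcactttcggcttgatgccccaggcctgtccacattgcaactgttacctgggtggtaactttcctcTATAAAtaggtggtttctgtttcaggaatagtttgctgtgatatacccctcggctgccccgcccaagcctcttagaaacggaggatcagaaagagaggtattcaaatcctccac
*Tnfrsf13b* promoter: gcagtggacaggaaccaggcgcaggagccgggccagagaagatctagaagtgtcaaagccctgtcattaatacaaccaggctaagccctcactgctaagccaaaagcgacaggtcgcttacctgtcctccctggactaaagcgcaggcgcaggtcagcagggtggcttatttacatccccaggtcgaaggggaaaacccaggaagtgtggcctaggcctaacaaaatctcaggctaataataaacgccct
The NF-kappa-B consensus was found in 4 of the 35 member entries (11.4%), beside 7.25% of all 32851 promoters, and TATAAA in 6 (17.1%), beside 12.4%. ATTTGCAT was in 0 of the 35, beside 1.6% of all. The 4 with the NF-kappa-B consensus were *Ltb*, *Tnfrsf25*, *Tnfrsf8* and *Tnfrsf9*, and the 6 with TATAAA were *Lta*, *Tnf*, *Tnfrsf17*, *Tnfrsf23*, *Tnfsf11* and *Tnfsf18*. Such a match is a string of letters and no measured site. TATAAA starts at position -29 in *Tnf* and -114 in *Tnfrsf17*, counted from the start site.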

How the data were processed

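RNA of sorted EpCAM+ cells from 16 mice was analysed. The authors prepared stranded polyA libraries, sequenced single reads of 75 bases and quantified transcripts with kallisto, and sleuth and build mm10 are named in the submitters' processing notes. The deposited values are TPM per transcript, scaled between mice within each of 2 tables, one per treatment, and listing principal isoforms only. The tables' columns of the authors' own comparison were not used. No column belonged to another sample. TPM hold no depth, and the number of mice limits the precision. Repeated lines (385 of 29373) were dropped, and TPM was summed per gene symbol over the 28988 transcripts, 46 of them of members.

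Levels between treatments used median-of-ratios factors over all 16 mice (0.882 to 0.916 in water, 1.10 to 1.21 after DSS) and percentile ranks within libraries. Log2 ratios compare the group means of TPM + 1, and their SE comes from log2(TPM + 1) of the mice. Genotype was tested within each treatment on log2(TPM + 1), by limma (version 3.58.1, R version 4.3.3) with trend and with Benjamini-Hochberg adjustment over all genes that averaged 1 TPM or more, and called at an adjusted p under 0.05. Such fold changes understate changes of low genes. The code was tested on simulated data. Sequences and positions come from GENCODE M21 on GRCm38 and from RefSeq. Values in every mouse are given for *Tnf*, *Tnfrsf1a* and *Tnfrsf1b*, for members at least 2-fold apart without overlap in both genotypes, and for the 8 members with the highest mean. *Tnfsf9*, *Tnfrsf13c* and *Tnfsf15* were added after their values were seen. Members and lists were chosen with earlier results of these data known. Alternatives were other pseudocounts, filters, scalings and weights, cage, the replicate block, females only, a 4-fold limit and leaving out each mouse. Tables were handled with pandas 2.3.3 and numpy 2.4.6 in Python 3.11.15, and figures drawn with matplotlib 3.10.9.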

Additional observations from a re-analysis of the deposited data

Results flagged for a closer look

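A single mouse stood far from the rest of its group in 6 of 45 groups of values examined, each being a named member in a group of 4 or 5 mice. The limit is Dixon's 95% critical value, by which chance flags about 1 in 20 groups of normally spread values, and the 45 groups share mice. In the second water control, *Tnfrsf12a* had 51.4 rescaled TPM. In the fourth water Tnfr2ko mouse, *Tnfsf12* had 8.10. In the second water Tnfr2ko mouse, *Tnfrsf13c* had 9.71, and this mouse also had the highest mean of the B-cell and plasma-cell list, 4.79. In the first water control, *Tnfsf9* had 13.3, below the other controls. In the third DSS Tnfr2ko mouse, *Tnfrsf13b* had 0.488 and *Tnfrsf13c* had 0.495, where the other 3 mice were at 0. Beside values of 0 any higher value is flagged, so the rate of 1 in 20 does not apply to these genes. This mouse had the highest mean of the same list after DSS, 2.00. The cause of these values was not tested.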

How the results depend on the processing

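0 members were called between genotypes under all alternatives run in either treatment. Over all genes, 1 was called after DSS and 0 with a pseudocount of 0.1, with all genes above 0 or with the replicate block (0 to 3 leaving out a mouse), and in water 1 was called, 0 with a pseudocount of 0.1, a mean of at least 5 TPM or the replicate block, 4 with all genes above 0, and 1 to 2 leaving out a mouse. Same-numbered mice did not deviate together (correlations of -0.20 to -0.03 after DSS and -0.08 to 0.09 in water), so the numbers share only a label, and with the replicate block *Tnfrsf1b* was 0.14 after DSS and -0.27 in water. *Tnfrsf1b* after DSS turned to -0.0013 with array quality weights and ran from -0.0575 (without Tnfr2ko mouse 1) to 0.3575 (without control 1) leaving out a mouse. For counts of members between treatments, the share of all genes called under the same setting is given in brackets. For members higher after DSS, controls gave 1 (1.66%), but 2 without rescaling (6%), 0 at 4-fold (0.239%) and 0 to 2 leaving out a mouse (1.5% to 4.6%), with 0 without DSS control 1 or 3, which lost *Tnfrsf8*, and 2 without water control 2. Tnfr2ko mice gave 2 (3.47%), but 4 without rescaling (9.93%), by the epithelium list (7.33%) or by rank (5.65%), each adding *Tnf* and *Tnfsf15*, 1 at 4-fold (0.366%) and 1 to 3 leaving out a mouse (3.32% to 4.21%), with 1 without DSS mouse 1, which lost *Tnfrsf8*. Members lower were 4 in each genotype, 2 at 4-fold (3.37% in controls and 3.90% in Tnfr2ko mice), and in controls 3 without rescaling (6.06%) or by the epithelium list (7.25%, both without *Tnfsf12*, which was also lost without DSS control 2), with 4 to 6 in controls (7.84% to 11.7%) and 4 to 5 in Tnfr2ko mice (9.24% to 10.0%) leaving out a mouse. With females only 1 was higher (3.41%) and 5 lower (10.3%) in controls, and 3 higher (4.32%) and 3 lower (10.8%, without *Tnfrsf13c*) in Tnfr2ko mice. The slope on the B-cell list called 1 member, *Tnfrsf13b*, with a mean of at least 5 TPM or scaling by the epithelium list. Of 360 log2 ratios of named members under alternatives, 28 moved by more than the spread, and small ratios of *Tnfrsf1a*, *Tnfrsf1b*, *Ltbr*, *Tnfrsf12a*, *Tnfrsf21* and *Tnfsf13* changed sign without rescaling, some of them also under other settings. The causes were not tested. Groups of 3 to 5 mice limit precision, and levels near 0 TPM carry little information.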
